A study of Homo sapiens with 4 samples.

Results

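Polyamine synthesis and turnover was followed through 10 genes of 22Rv1 cells, chosen by gene name: the enzymes ODC1, AMD1, SRM, SMS, SAT1, PAOX and MTAP, the antizymes OAZ1 and OAZ2, and the antizyme inhibitor AZIN1. All 10 names were found, on 1 row each, among the 57500 rows of the count table, and all 10 passed the filter on low counts. 22Rv1 is a human prostate cancer line, grown here in RPMI-1640 with fetal bovine serum. The study compared 2 control libraries (wild-type genotype, with sgGFP in the library names) with 2 libraries of a CD276 knockout (sgCD276 in the library names); CD276 encodes the immune checkpoint ligand B7-H3. Both groups carry the replicate numbers 1 and 3, and no further treatment is named. The sources used here do not say whether the knockout cells are a pool or a clone. The replicates are termed biological in the series design, with no word on separate cultures, and each p-value then reflects only how much these libraries differ among themselves.

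Putrescine, spermidine and spermine are small polycations that bind nucleic acids and are needed for growth. ODC1 decarboxylates ornithine to putrescine, AMD1 decarboxylates S-adenosylmethionine to supply aminopropyl groups, and SRM and SMS add those groups to make spermidine and then spermine. SAT1 acetylates the products and PAOX oxidises the acetylated forms. Antizyme binds ODC1 and sends it to the proteasome without ubiquitin, the antizyme inhibitor AZIN1 (an ODC1 homologue without decarboxylase activity) captures antizyme, and MTAP recycles the methylthioadenosine that SRM and SMS release. The prostate epithelium secretes large amounts of spermine into semen, which makes this pathway one of high flux in the organ.

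Several of these genes carry sequence features that set how their RNA is used, and these are shown because counts per gene cannot read them. The antizyme reading frame contains a stop that polyamines help ribosomes to pass by a shift of frame. The stretches below, from GENCODE 29 transcripts and 5′ to 3′, hold that site in capitals; 44 of their 54 bases are identical.
OAZ1: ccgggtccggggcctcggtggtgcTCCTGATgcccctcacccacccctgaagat
OAZ2: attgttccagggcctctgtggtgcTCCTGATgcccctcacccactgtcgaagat
The AMD1 leader contains a short upstream reading frame of 6 codons, known to stall ribosomes when polyamines are abundant. It was found in 4 of the 8 annotated AMD1 transcripts, with its start and stop codons in capitals below.
AMD1 upstream frame: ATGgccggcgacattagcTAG

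The starts of the genes are shown for the members whose RNA rose together, ODC1 and AMD1, beside SRM, whose RNA was not called. RefSeq windows of 300 bases (250 before and 50 after a start, GRCh38.p14) were available for 8 of the 10 members. Searched on both strands, the letters TATAA occurred in 5 of the 11 windows of these members and in 20.4% of all 35116 windows. The 4 genes with TATAA were ODC1, AMD1, OAZ1 and MTAP, and the RNA of OAZ1 and MTAP was not called. The AMD1 windows overlap and hold the same TATAA, so that site was counted in both. Relative to the start, the first base of the match lay at -32 in ODC1 and at -28 or -29 in AMD1, by window. It lay at 6 in OAZ1, after the start, and between -215 and -179 in MTAP. The E-box CACGTG, the site of MYC and MAX dimers, occurred in 2 of the 11 (2 genes) and in 7.26% of all windows. The AMD1 stretch lies at chr6:110874535-110874769 on the plus strand, just upstream of the annotated exons, and its TATAA is in capitals.
AMD1: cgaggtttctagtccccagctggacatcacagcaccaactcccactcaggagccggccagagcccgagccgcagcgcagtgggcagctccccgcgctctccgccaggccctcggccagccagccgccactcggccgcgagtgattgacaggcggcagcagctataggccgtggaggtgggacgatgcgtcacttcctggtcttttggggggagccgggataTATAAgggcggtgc
The first ODC1 line below is chr2:10448342-10448371 on the minus strand, inside a GENCODE exon of the gene, with TATAA in capitals, and the second is chr2:10447997-10448046, also minus, with a pair of CACGTG motifs that lies between annotated GENCODE exons of the gene.
ODC1 TATA: acccgccggtgcTATAAgtagggagcggcg
ODC1 E-boxes: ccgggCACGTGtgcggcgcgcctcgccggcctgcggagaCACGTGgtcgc
The SRM stretch, chr1:11060025-11060268 on the minus strand, holds 1 CACGTG, in capitals, and no TATAA.
SRM: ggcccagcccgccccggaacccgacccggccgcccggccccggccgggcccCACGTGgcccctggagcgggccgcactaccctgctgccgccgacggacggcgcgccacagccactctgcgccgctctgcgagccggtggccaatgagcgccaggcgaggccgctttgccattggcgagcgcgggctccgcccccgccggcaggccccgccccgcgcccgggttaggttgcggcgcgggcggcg
These matches are descriptions of the letters and not of binding.

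Library totals ran from 20079050 to 25802417 counts, and 1 CPM (a count rescaled to a library of 1e+06) was worth 20.1 to 25.8 counts. The targeted gene CD276 had 1058 and 1054 counts in control replicates 1 and 3 against 621 and 679 in knockout replicates 1 and 3 (log2 fold change -1.03 ± 0.16 SE). Its edgeR adjusted p was 0.00561, and 0.0812 without control replicate 3. The prostate luminal markers KLK2, KLK3, FOLH1, TMPRSS2, HOXB13, KRT8 and KRT18 were expressed in every library, from 5.11 to 10.5 normalized CPM for TMPRSS2 to 661 to 1247 for KRT8, and of these KRT18 fell (854 and 801 against 438 and 593.5, edgeR adjusted p = 0.037). The 5 immune markers summed to 1.03 to 2.24 normalized CPM with CD3E at 0, and the 3 endothelial markers to 0 to 0.0773 with PECAM1 and CDH5 at 0. The 5 fibroblast markers summed to 53.95 to 59.8 in the controls and 33.9 to 46.1 in the knockouts. Most of that sum was COL1A1, which fell (-1.001 ± 0.211, edgeR adjusted p = 0.0139), while LUM rose (0.84 ± 0.21, adjusted p = 0.0244); the other 2 tested were not called, and the median of the 4 was 0.73. Transcripts of the mitochondrial genome took 5.84% and 6.15% of control counts and 1.46% and 1.78% of knockout counts, and the median log2 fold change was -0.20 in the 4443 genes richest in GC (56.6% to 76%) against 0.10 in the 4443 poorest (23.1% to 42.2%). The part of these differences in the member results was not tested, beyond the fits with GC offsets and with nuclear protein-coding genes alone given below. Of 18043 genes tested, 22.8% were called at a Benjamini-Hochberg adjusted p under 0.05 by edgeR's quasi-likelihood test, 9.87% higher and 12.9% lower in the knockouts. The split of 1780 higher and 2331 lower became 2340 and 1781 when scaled by library totals alone, under which the median over all genes (log2) moved from 0.00 to 0.10. It was 2396 and 2161 with GC and length offsets.

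The transcripts of the rate-limiting enzymes ODC1 and AMD1 rose by about the same factor in the CD276 knockout libraries, AZIN1 rose less, and no member fell. Of the 10 genes, 3 rose, 0 fell and 7 were not called, where 9.87% of all genes tested rose. With no adjustment, 4 members were higher and 0 lower at p under 0.05 (edgeR), where 17.9% of all genes tested were higher and 20.9% lower. DESeq2 called 3 members higher and 0 lower, and 11.2% and 10.7% of its tested genes. The median log2 fold change of the 10 was 0.35, beside 0.00 over all genes tested and 0.06 over nuclear protein-coding genes. Levels below are normalized CPM (TMM scaling), and differences are log2 fold changes, knockout over control, each ± SE from the edgeR fit (2 libraries per group). That fit estimates the variance of a gene with the help of all genes, so the SE is not the spread of the gene's own libraries. Because RNA was taken from whole cultures, a change in RNA per cell and a change in the share of cells that express a gene cannot be told apart.

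ODC1 (chromosome 2, 10439968 to 10448504, minus strand, GRCh38) was at 262 and 264 normalized CPM in control replicates 1 and 3 and at 425 and 410 in knockout replicates 1 and 3. The groups did not overlap, and the 2 libraries of each group lay close together. The level rose 1.59-fold (0.66 ± 0.15 in log2, edgeR adjusted p = 0.0156). AMD1 (chromosome 6, 110874770 to 110895713, plus strand), which makes the aminopropyl donor, was at 167 and 165 normalized CPM in control replicates 1 and 3 and at 267 and 268 in the knockouts. Its knockout libraries were almost equal and lay well above both controls. The level rose 1.61-fold (0.68 ± 0.14 in log2, edgeR adjusted p = 0.0115). ODC1 and AMD1 share no annotated exonic base with another gene, and the AMD1 pseudogenes of the table had at most 6 counts in a library against 3204 or more for AMD1. Both calls were lost when either control was left out, and held under each of the other 14 alternatives. The log2 fold changes without control replicates 1 and 3 were 0.66 and 0.67 for ODC1 and 0.69 and 0.68 for AMD1. Calls over all genes also became far fewer without a control and more numerous without a knockout library. The loss and the holding in those fits were thus not particular to ODC1 and AMD1.

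**Figure D1:**
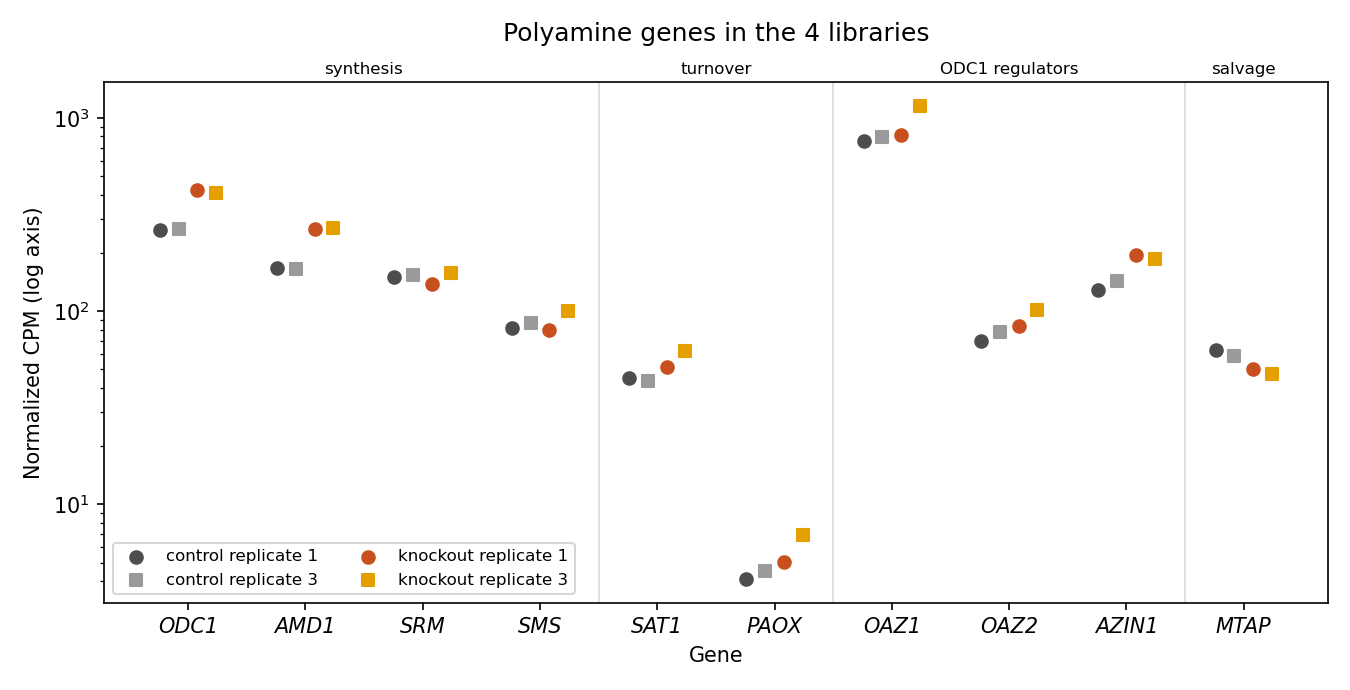
Normalized CPM (log axis) of the 10 polyamine genes in each library, 1 point per library, grouped by role. ODC1, AMD1, SAT1, PAOX, OAZ1, OAZ2 and AZIN1 lie above both controls in both knockout libraries. SRM and SMS overlap between the groups, and MTAP lies below both controls.

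The synthases downstream of these decarboxylases did not pass the test. SRM (chromosome 1, 11054584 to 11060024, minus strand), spermidine synthase, was at 149 and 154 normalized CPM in the control libraries, against 137 and 157 in the knockouts, so 1 knockout library lay below and 1 above both controls. Its log2 fold change was -0.05 ± 0.14 (edgeR adjusted p = 0.839). SRM is GC-rich (63.7% of its longest transcript), and with GC and length offsets (which remove the trend of each library with GC content and length) its value was 0.39 ± 0.12 (edgeR adjusted p = 0.0395), a reversal of sign. SMS (chromosome X, 21940573 to 21994835, plus strand), spermine synthase, was at 81.6 and 86.9 in the controls, against 79.6 and 100.1 in the knockouts, again on either side of the controls, and the difference was 0.09 ± 0.15 (edgeR adjusted p = 0.694). In SMS the value without knockout replicate 1 was 0.26 and without knockout replicate 3 it was -0.01.

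Of the proteins that control ODC1, the antizyme inhibitor rose and the antizymes were not called. AZIN1 (chromosome 8, 102826357 to 102893864, minus strand) was at 129 and 143 normalized CPM in the control libraries, against 195 and 187 in the knockouts. Its groups did not overlap, and it rose 1.40-fold (0.49 ± 0.14, edgeR adjusted p = 0.0359). The call missed the threshold with GC and length offsets (0.36, edgeR adjusted p = 0.0575), with those offsets and the replicate number as a block (0.37, adjusted p = 0.0932), in a fit of nuclear protein-coding genes alone (0.43, adjusted p = 0.0529) and without control replicate 1 (0.41, adjusted p = 0.493) or control replicate 3 (0.57, adjusted p = 0.282). AZIN1 shares 5.35% of its exonic bases with the opposite-strand AZIN1-AS1, which had 50 to 78 counts against 2777 to 5123 for AZIN1.

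OAZ1 (chromosome 19, 2269509 to 2273490, plus strand), the most abundant of the 10 transcripts, was at 755 and 797 normalized CPM in the control libraries, against 817 and 1152 in the knockouts. Knockout replicate 1 lay just above the controls and knockout replicate 3 far above them, and the log2 fold change of 0.34 ± 0.21 did not pass (edgeR adjusted p = 0.253). Without knockout replicate 1 the value was 0.58 and without knockout replicate 3 it was 0.14, so the size of the difference rests on knockout replicate 3. OAZ2 (chromosome 15, 64687573 to 64703281, minus strand), a second antizyme, was at 70.1 and 78.1 in the controls, against 83.7 and 101 in the knockouts. Its groups did not overlap but the difference of 0.32 ± 0.15 did not pass (edgeR adjusted p = 0.153). Without knockout replicate 1 the difference was 0.46 and without knockout replicate 3 it was 0.24. Genes that overlap exons of OAZ1 or OAZ2 had at most 46 counts in a library.

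Levels of different genes were compared per kilobase of each gene's longest coding transcript. On that scale OAZ1 RNA stood at 6.66 and 6.97 times the level of ODC1 RNA in the controls, and at 4.44 and 6.50 times in knockout replicates 1 and 3. The ratio was thus below the controls in both knockouts, but close to them in knockout replicate 3. The size of such ratios, though not their change between libraries, depends on the length used. Per kilobase of all annotated exonic bases, OAZ1 was at 220 and 232 and ODC1 at 88.3 and 89.1 in the controls. OAZ1 over AZIN1 was 24.1 and 22.9 in the controls, against 17.2 and 25.4 in the knockouts, on both sides of the controls. AZIN1 over ODC1 was 0.276 and 0.305 in the controls, against 0.258 and 0.256 in the knockouts, and ODC1 over AMD1 was 2.03 and 2.07 and then 2.06 and 1.98, a ratio that barely moved. These are levels of RNA; antizyme protein also depends on the frameshift site shown above.

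The turnover enzymes were higher in both knockout libraries but not called. SAT1 (chromosome X, 23783173 to 23786226, plus strand), the acetyltransferase that starts polyamine breakdown and export, was at 45.3 and 43.5 normalized CPM in the control libraries, against 51.5 and 62.4 in the knockouts. The groups did not overlap, and the log2 fold change was 0.36 ± 0.15 (unadjusted p = 0.0428, edgeR adjusted p = 0.116). With GC and length offsets SAT1 was at 0.61 ± 0.13 (edgeR adjusted p = 0.0118). It was at 0.28 without knockout replicate 3 and at 0.50 without knockout replicate 1. PAOX (chromosome 10, 133379234 to 133391694, plus strand), the peroxisomal oxidase of acetylated polyamines, had only 92 and 88 counts in the controls, against 132 and 180 in the knockouts. That is 4.12 and 4.54 against 5.03 and 6.96 normalized CPM (0.47 ± 0.27 in log2, edgeR adjusted p = 0.229), and 0.76 ± 0.24 with GC and length offsets (adjusted p = 0.0452). Without knockout replicate 1 PAOX was at 0.70, and without knockout replicate 3 at 0.28.

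MTAP (chromosome 9, 21802543 to 21937651, plus strand), the phosphorylase of the salvage step, lay apart from the other members. It was at 63.0 and 58.3 normalized CPM in the control libraries, against 50.4 and 47.3 in the knockouts, the only gene of the 10 with both knockouts below both controls. Its log2 fold change of -0.31 ± 0.14 was not called (edgeR adjusted p = 0.131). It was -0.42 with GC and length offsets (edgeR adjusted p = 0.0354) and -0.35 without knockout replicate 1, but -0.20 without knockout replicate 3. MTAP overlaps other genes of its own strand over 7.83% of its exonic bases, and those rows held at most 5 counts in a library.

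**Figure D2:**
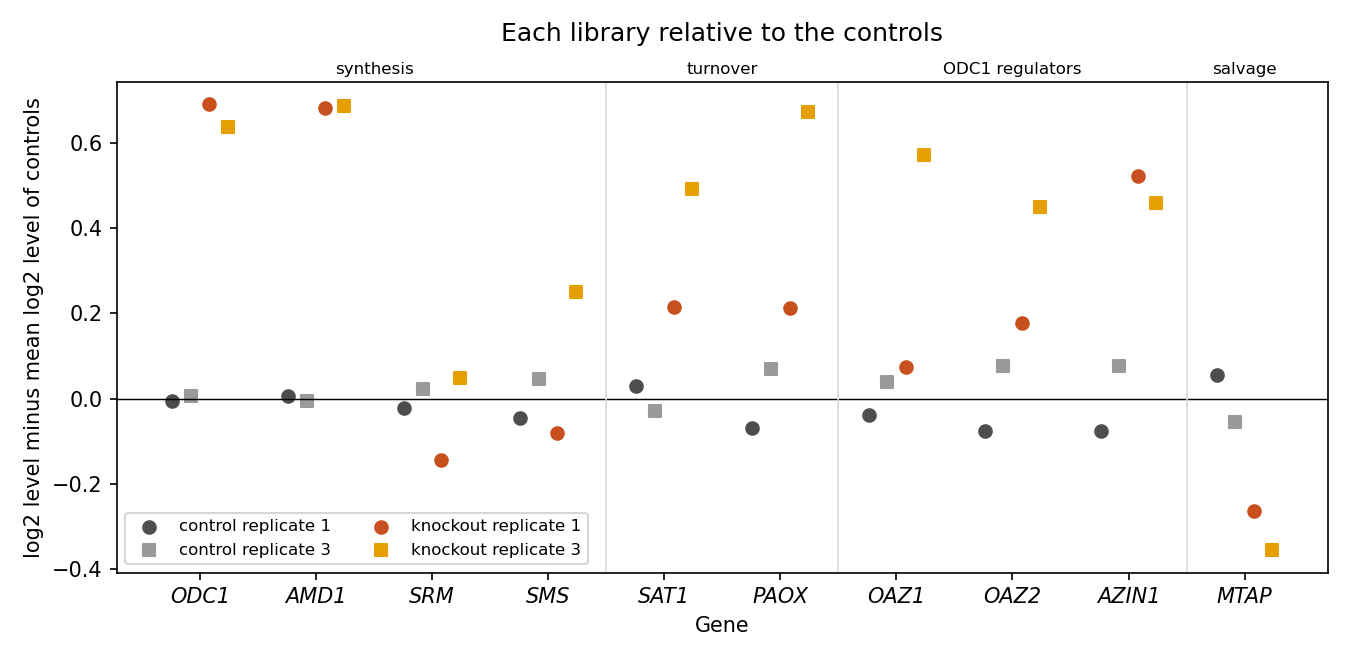
log2 normalized level of each gene in each library minus the mean log2 level of the 2 controls, 1 point per library. For ODC1, AMD1 and AZIN1 the knockout libraries lie together, while for SRM, SMS, SAT1, PAOX, OAZ1 and OAZ2 knockout replicate 3 lies above knockout replicate 1.

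Groups that did not overlap were found for 8 of the 10 genes, 7 with the knockouts higher and 1 with them lower, where 65.9% of all genes tested did not overlap and 31.8% did so with the knockouts higher. The members fell into 2 kinds by how their knockout libraries compared, a division made after the values were seen. In ODC1, AMD1 and AZIN1 the log2 level in knockout replicate 3 minus that in knockout replicate 1 was -0.05, 0.01 and -0.06. In SMS, PAOX and OAZ1 it was 0.33, 0.46 and 0.50, and in SRM, SAT1 and OAZ2 it was 0.19, 0.28 and 0.27. MTAP was at -0.09. Knockout replicate 3 was thus the higher in 7 of 10 members, with a median difference of 0.23, against 50.1% of all genes tested and a median of 0.00. Among the pairs of members, ODC1 and AMD1 had the smallest root mean square distance between their centred log2 levels (0.02 over the 4 libraries), followed by PAOX and OAZ1 (0.07). Both distances are descriptions over 4 libraries.

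Per kilobase of the longest coding transcript (FPKM), the order in the controls was OAZ1 (657.5 and 695), SRM (118 and 122), ODC1 (98.8 and 99.7), AMD1 (48.6 and 48.1), SMS (44.4 and 47.3), SAT1 (42.5 and 40.9), OAZ2 (36.3 and 40.4), AZIN1 (27.3 and 30.4), MTAP (8.34 and 7.71) and PAOX (2.22 and 2.45). The control means of AMD1 and SMS, and those of SAT1 and OAZ2, lay closer together than the 2 control values of SMS and of OAZ2. The control values did not overlap in either pair, but these neighbours were close. On this scale, in the knockouts, ODC1, at 160 and 154 FPKM, stood above SRM, at 108.5 and 124. AMD1, at 77.6 and 77.9, stood above SMS, at 43.3 and 54.5. The order of ODC1 and SRM in the controls depends on the length used: over all annotated exonic bases ODC1 was at 88.3 and 89.1 and SRM at 78.7 and 81.3. The order of AMD1 and SMS depends on it too. Over exonic bases AMD1 was at 23.8 and 23.5 in the controls, below SMS at 37.8 and 40.2. In the knockouts AMD1 was then at 37.95 and 38.1 and SMS at 36.8 and 46.35, so the 2 genes overlapped.

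**Figure D3:**
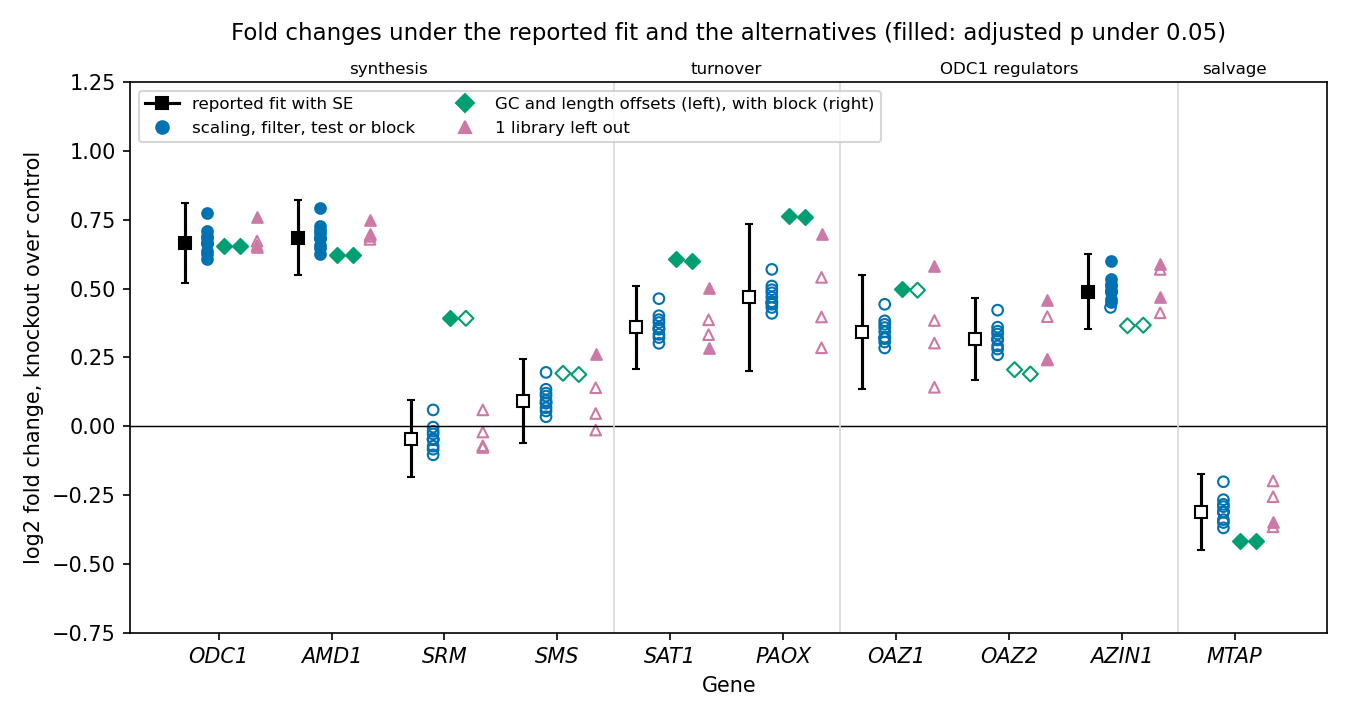
log2 fold change of each member under the reported fit (squares with SE bars) and under 16 alternatives, filled where the adjusted p is under 0.05; the GC and length offsets appear without (left diamond) and with (right diamond) the replicate block. ODC1 and AMD1 lie between 0.61 and 0.79 throughout and lose the call only where a control is left out, while SRM, SAT1, PAOX, OAZ1 and MTAP are filled with GC and length offsets without the block.

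Without leaving out a library, the number of members called changed most with GC content taken into account. With GC and length offsets 6 members rose (ODC1, AMD1, SRM, SAT1, PAOX and OAZ1) and 1 fell (MTAP). In that fit 2396 of 17772 genes tested rose and 2161 fell. The median over all genes was 0.07 (log2), beside 0.00 in the reported fit, so the offsets also moved the scale. With the replicate number as a block added to those offsets, 4 members rose and 1 fell, where 2525 of all genes rose and 2318 fell. ODC1 and AMD1 were at 0.65 and 0.62 with the offsets, near their reported values. The members differ widely in GC content, from 37.7% in AMD1, 39.1% in MTAP and 42.3% in AZIN1 to 61.2% in OAZ1, 63.3% in PAOX and 63.7% in SRM. The part of GC content in the results was not tested beyond this refit.

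Genes that supply, use or move polyamines were described by 6 lists with 50 genes, all in the table, of which 44 passed the filter. Among these 44, 4 rose, 2 fell and 38 were not called, and the median log2 fold change was 0.12. Before adjustment 12 were higher and 7 lower at p under 0.05 (edgeR), where 17.9% and 20.9% of all genes tested were. The called share of 13.6% was below the 22.8% of all genes. By DESeq2 6 rose and 2 fell.

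The largest called changes near the pathway were in the RNA of MAT2A and SLC25A15, from the lists for S-adenosylmethionine and ornithine. The supply of these substrates was not measured. MAT2A, the methionine adenosyltransferase that makes S-adenosylmethionine outside the liver, was at 52.8 and 61.9 normalized CPM in the control libraries, against 169 and 112 in the knockouts. Both knockouts lay far above the controls, although they differed from each other, and MAT2A rose 2.45-fold (1.29 ± 0.20, edgeR adjusted p = 0.00635; 0.0618 without control replicate 1). Annotation on the other strand overlaps 12.4% of its exonic sequence. AHCYL1, a relative of the hydrolase that clears S-adenosylhomocysteine, rose from 76.9 and 80.4 to 134 and 126 (0.73 ± 0.13, edgeR adjusted p = 0.00902; 0.226 without control replicate 1 and 0.144 without control replicate 3). The hydrolase gene itself, AHCY, named after its values were seen, was not called (0.38 ± 0.16, edgeR adjusted p = 0.11). In the methionine and S-adenosylmethionine cycle 2 of 12 tested genes rose, 0 fell and 10 were not called. The median was 0.36. Before adjustment 6 were higher and 0 lower at p under 0.05 (edgeR).

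For ornithine supply 1 of 6 tested genes rose, 1 fell and 4 were not called; the median was 0.14. SLC25A15, the carrier that exchanges ornithine across the inner mitochondrial membrane, was at 7.52 and 8.52 normalized CPM in the control libraries, against 24.4 and 16.9 in the knockouts. It rose 2.57-fold (1.36 ± 0.23, edgeR adjusted p = 0.00684; 0.0816 without control replicate 1). ASL, argininosuccinate lyase, which makes the arginine that arginases split, fell from 81.3 and 82.6 to 56.7 and 59.8 (-0.49 ± 0.13, edgeR adjusted p = 0.0299). That call was lost with GC and length offsets (-0.27, edgeR adjusted p = 0.133) and with scaling by library totals (adjusted p = 0.0756), and without control replicate 1 (0.359) or 3 (0.333). ASL shares 17.6% of its exonic bases with other annotation on its strand. ARG1, OTC and SLC25A2 did not pass the filter, with at most 7 counts in a library.

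**Figure D4:**
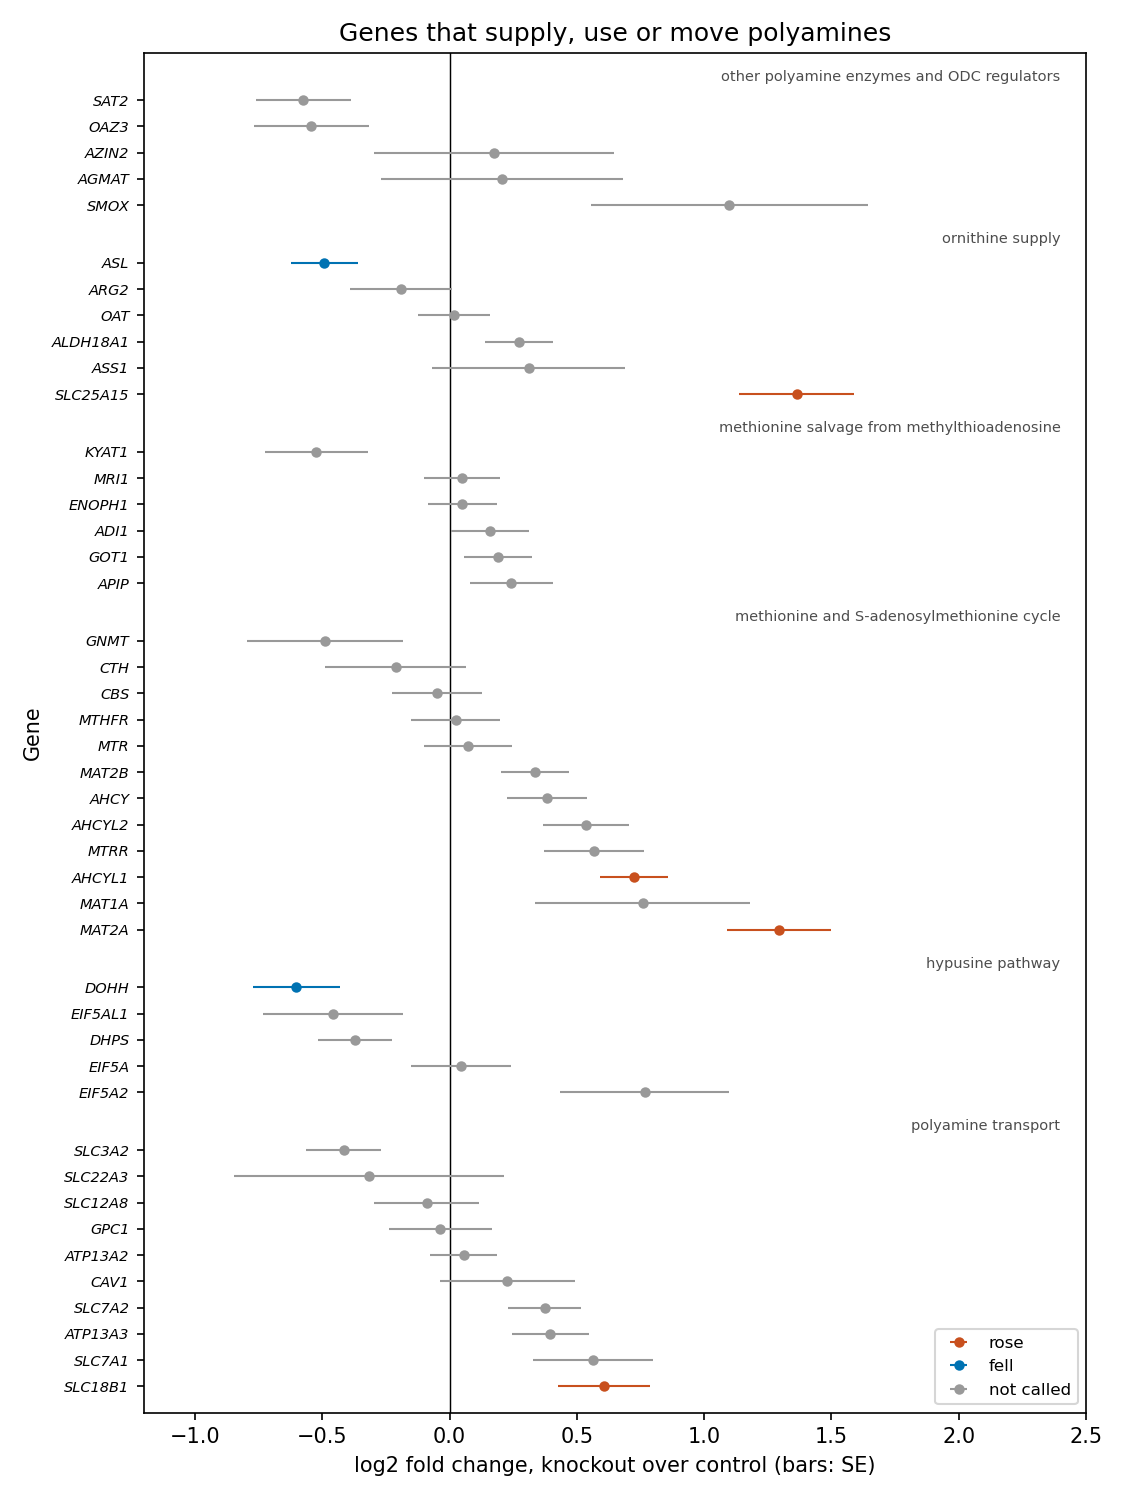
log2 fold change of knockout over control with SE for the 44 tested genes of the 6 lists, ordered within each list. SLC25A15 and MAT2A lie farthest to the right among the called genes, and DOHH and ASL are the called genes to the left of 0.

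In the hypusine pathway, which attaches a spermidine-derived group to the translation factor EIF5A, 0 of 5 tested genes rose, 1 fell and 4 were not called; the median was -0.37. Before adjustment 1 was higher and 2 were lower at p under 0.05 (edgeR). DOHH, which completes the modification, was at 52.7 and 65.4 normalized CPM in the control libraries, against 42.7 and 35.1 in knockout replicates 1 and 3 (-0.60 ± 0.17, edgeR adjusted p = 0.0363), and at -0.28 with GC and length offsets (adjusted p = 0.327). The DOHH call was also lost with library totals (edgeR adjusted p = 0.0934) and without control replicate 1 (0.182) or 3 (0.415). Of 10 polyamine transport genes 1 rose, 0 fell and 9 were not called, at a median of 0.14 (before adjustment, 4 higher and 1 lower at p under 0.05). SLC18B1, a vesicular polyamine transporter, rose from 11.2 and 10.95 to 17.9 and 15.7 (0.61 ± 0.18, edgeR adjusted p = 0.0434; 0.0601 in the fit of nuclear protein-coding genes alone, 0.386 without control replicate 1 and 0.351 without control replicate 3).

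Of the 5 other polyamine enzymes and ODC1 regulators 0 were called, and before adjustment edgeR had 0 higher and 2 lower at p under 0.05. SAT2, a paralog of SAT1, was at 60.6 and 53.1 normalized CPM in the control libraries, against 31.8 and 44.6 in the 2 knockouts (-0.57 ± 0.19, edgeR adjusted p = 0.0564). OAZ3, the testis antizyme, of which 19.8% overlaps annotation on the other strand, was at 7.84 and 7.59 and then 5.71 and 4.87 (-0.54 ± 0.23, edgeR adjusted p = 0.113). SMOX, spermine oxidase, named after its values were seen, had 26 and 34 counts in the controls, against 39 and 123 in the knockouts, so its log2 fold change of 1.10 ± 0.54 rests on knockout replicate 3 (edgeR adjusted p = 0.171). In the salvage of methionine from methylthioadenosine, downstream of MTAP, 0 of 6 tested genes were called, the median was 0.10, and before adjustment edgeR had 0 higher and 1 lower at p under 0.05. GOT1 and ADI1, with the highest mean normalized CPM of this list over the 4 libraries (a scale not corrected for length), had log2 fold changes of 0.19 ± 0.13 and 0.16 ± 0.15 (edgeR adjusted p = 0.323 and 0.479).

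The genes whose pattern over the 4 libraries was nearest to a member were found among 10013 other genes with a mean of at least 10 normalized CPM. For ODC1 these were C8orf33, PDSS2 and TCTA, at root mean square distances of 0.0045, 0.0134 and 0.0155 on the centred log2 scale. For AMD1 they were THAP12, HSDL2 and ARMC10, at 0.0145, 0.0146 and 0.0157, and for SAT1 C15orf39, VSTM2A and CRYZ, at 0.0052, 0.0117 and 0.0124. With 4 libraries in 2 groups many genes share such a pattern, so these likenesses are descriptions.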

How the data were processed

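Messenger RNA of 22Rv1 cells was read in pairs from TruSeq libraries, per the labels' protocols. The values are gene counts that the authors deposited without normalization, in 1 table of 4 libraries. The submitters' processing notes name GRCh38, Trimmomatic 0.36, STAR 2.5.2b, and featureCounts with Subread 1.5.2. The sources used here do not give the strand setting, multi-mapping rule or annotation release, so antisense and near-identical genes may share counts.

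The 486 rows without a name (0.0191% to 0.0290% of counts) were left out. Counts were filtered with filterByExpr, scaled by TMM and tested by quasi-likelihood (edgeR 4.0.16, R 4.3.3; robust=TRUE in glmQLFit, then glmQLFTest; group only, 2 residual degrees of freedom), with Benjamini-Hochberg adjustment over all genes and a threshold of 0.05. SE is the fold change divided by the square root of F. Positions, lengths, GC content and exon overlap came from GENCODE 29, and promoters from RefSeq. The fit was tested on simulated data, where it missed most changes of 1.5-fold, so a gene not called here may still differ. Alternatives were RLE, upper quartile and library-total scaling, no filter, at least 50 counts in both libraries of a group, DESeq2 1.42.0, limma voom (limma 3.58.1), robust=FALSE, a replicate block, nuclear protein-coding genes alone, GC and length offsets (splines with 5 degrees of freedom, with and without the block) and leaving out each library, which leaves 1 residual degree of freedom and assumes that a lone library varies like the other group. Members and lists were chosen with earlier results of these data known. Named genes were the members, CD276, up to 4 called genes per list or else the 2 most abundant, and the 3 nearest patterns of ODC1, AMD1 and SAT1. Of the prostate luminal marker list, 1 item and the sum that holds it are not reported here.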

Additional observations from a re-analysis of the deposited data

How the results depend on the processing

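Over the 10 members and 16 alternatives, 131 of 160 values kept their direction and their side of the threshold, 9 lost a call, 15 gained one without a change of sign and 5 changed sign, 1 of which (SRM with GC and length offsets) also gained a call. SRM changed sign, to 0.059 with library totals, 0.39 with GC and length offsets, 0.39 with those offsets and the replicate block, and ran from -0.077 to 0.059 when 1 library was left out (positive without knockout replicate 1). SMS ran from -0.014 (without knockout replicate 3) to 0.26 when 1 library was left out. With GC and length offsets 6 members rose and 1 fell, and 0 related genes fell; with the block as well, 1 member fell, 7 related genes rose and 1 fell. Related genes that fell numbered 0 with library totals, 4 with nuclear protein-coding genes alone and 4 without a filter, where 8 rose. Of all genes tested, 1781 of 18043 fell with library totals and 1775 of 13763 with nuclear protein-coding genes alone. Without a filter 2512 of 32400 rose and 2841 fell. Leaving out 1 library gave 0 to 8 members higher and 0 to 1 lower, 0 to 17 related genes higher and 0 to 7 lower, and 45 to 4795 of all genes higher and 267 to 4471 lower, with the highest counts where a knockout library was left out; the cause was not tested. Libraries of the same replicate number showed no shared shift across genes (their deviations from the group means correlated at -0.015). With 2 libraries per group this is a single value, and it cannot show whether the samples were paired by design. With the replicate block 3 members rose and 0 fell, and 6 related genes rose and 4 fell. Of all 18043 genes tested, 2062 rose and 2781 fell in that fit. The limits are 2 libraries per group and, for PAOX, 88 to 180 counts.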
